A study of Mus musculus with 16 samples.

Results

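The comparison described here asks how the effect of the Trib1 genotype label in adipocytes differed from its effect in the liver of the same mice. Its value for a gene is the log2 change of knockout-labelled against wild-type libraries in adipocytes minus the same change in liver, called the tissue difference below. It was computed for the 10695 of 23420 genes that averaged a CPM (counts scaled to a common library total) of at least 1 over the 8 libraries of each tissue, so genes that only one tissue expresses were not part of it. All 16 libraries of the series entered it, as 4 groups of 4. The mice were male C57BL/6, 4 labelled wild-type and 4 labelled as knockouts of Trib1 in adipocytes only, and each gave one library of adipocytes freed from subcutaneous fat with collagenase and one of whole liver. Named by genotype and number as in the titles, mice wt_1135, wt_1136, wt_1138, ko_1137 and ko_1139 were 76 days old, and mice wt_1153, ko_1151 and ko_1152 were 70 days old. The labels give no treatment, no Cre line or promoter, no deleted exon and no separate control for the deletion system. Nothing in the labels says that mice were pooled.

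Trib1 encodes tribbles 1, a pseudokinase that acts as a scaffold between the ubiquitin ligase COP1 and substrates such as the transcription factor C/EBP alpha. Fat cells store triglyceride, release fatty acids and glycerol, and secrete hormones, of which adiponectin acts on the liver. The liver takes up fatty acids, burns or re-exports them, makes glucose, and secretes apolipoproteins, complement and most other plasma proteins. A gene active in both tissues therefore permits a direct reading of whether the genotype label goes with the same change in both.

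Library totals ran from 28560887 to 53716669 counts, and the 10695 genes held 74.5% to 95.8% of each. Adipocyte libraries carried 50203 to 75534 CPM of the 12 adipocyte markers if wild-type and 64487 to 74128 CPM if knockout-labelled, and liver libraries 155832 to 193110 CPM of the 12 hepatocyte markers, so both tissue labels fitted their markers. Trib1 did not separate the genotype labels. In adipocytes it was at 639, 788, 1030 and 1081 CPM in wild-type and at 910, 1036, 1175 and 1101 CPM in knockout-labelled mice, and in liver at 61.3 to 87.1 CPM against 49.7 to 93.1 CPM. The groups overlapped in both tissues, and the tissue difference of Trib1 (15:59648350-59657099, GRCm38) was 0.14 (95% interval -0.43 to 0.71; edgeR adjusted p = 0.737). Each direction given here is thus one between labels. Adipoq, the adiponectin gene, was too low in liver for the comparison, with 0 to 90 counts per library, against 2326 to 3424 CPM in wild-type and 3638 to 4117 CPM in knockout-labelled adipocytes.

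The genotype label went with many changes in adipocytes and with few in liver. The tissue difference passed the test (edgeR quasi-likelihood, Benjamini-Hochberg adjusted p under 0.05) for 2504 genes, 23.4% of those tested, with 1344 higher (12.6%) and 1160 lower (10.8%). Higher means that the change in adipocytes lay above that in liver. Of these genes, 266 differed by at least 2-fold upwards and 738 by at least 2-fold downwards. At an unadjusted p under 0.05 the difference was found for 35.9% of all genes. In the same fit the adipocyte change passed for 3978 genes (37.2%) and the liver change for 5 (0.0468%), 3 higher (0.0281%) and 2 lower (0.0187%). The median SE of a change was 0.12 in adipocytes and 0.12 in liver on the log2 scale. One measure of spread per gene was fitted over both tissues, so these SEs could hardly differ and do not compare the precision of the tissues. At an unadjusted p under 0.05 the liver change was found for 1001 genes (9.36%), DESeq2 called 60 and limma-voom 8. Adipocytes had a median absolute log2 change of 0.23 and liver one of 0.11, and the middle 90% of genes spanned -1.33 to 0.68 in adipocytes and -0.32 to 0.33 in liver. Across genes, which are not independent replicates, the 2 changes correlated at r = -0.0976 (rho = -0.0840). Without TMM, on library totals, the median tissue difference of all genes was -0.17, and 24.7% of the calls (648 against 1975) were higher, compared with 53.7% under TMM.

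**Figure D1:**
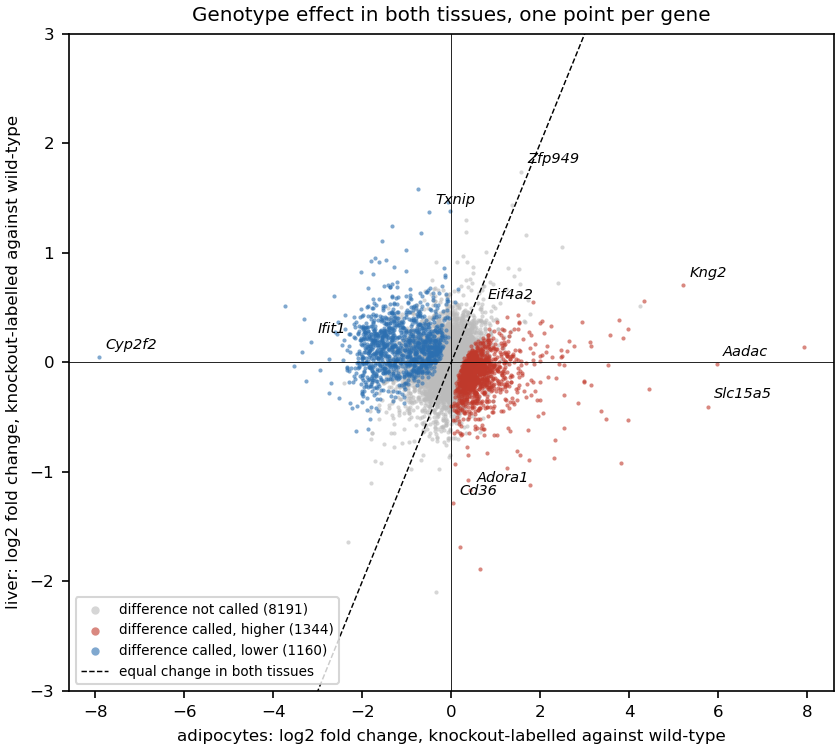
Each point is one of 10695 genes, with its log2 change in adipocytes on the x axis and in liver on the y axis, both for knockout-labelled against wild-type libraries, and the axes differ in scale. Points spread along the adipocyte axis, from -7.92 to 7.92, and stay between -2.09 and 1.74 on the liver axis, and Zfp949 and Eif4a2 lie near the dashed line of equal change.

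Genes with large changes in adipocytes had small ones in liver at the median. The 49 genes at least 4-fold higher in adipocytes (called there, median log2 change 2.65) had a median liver change of 0.06, and the 86 genes at least 4-fold lower (median -2.16) had one of 0.05. For the 696 genes between 2-fold and 4-fold lower the medians were -1.45 and 0.10. The tissue difference passed for 2303 genes that were also called in adipocytes and for 201 that were not, 198 of them called in neither tissue. A further 1675 genes passed in adipocytes without passing for the difference, and 1218 of these had the same sign in liver. Within mice, the adipocyte-minus-liver log2 CPM of the 4 knockout-labelled animals lay wholly above that of the 4 wild-type animals for 1439 genes (13.5%) and wholly below it for 1079 (10.1%), together 23.5% of all genes, and 1985 of the 2504 called genes were among these. A total of 290 genes had a mean under 1 CPM in one of the 4 groups and reached the minimum through the others, and 45.9% of them were called.

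Cyp2f2, a cytochrome P450 of liver and airway, had the lowest tissue difference of all genes. In wild-type adipocytes it was at 175, 266, 224 and 224 CPM and in knockout-labelled adipocytes at 0.779, 1.01, 1.002 and 0.874 CPM, while liver held 1516 to 1964 CPM in wild-type and 1507 to 2075 CPM in knockout-labelled mice. The adipocyte groups were far apart and the liver groups overlapped fully. The tissue difference was -7.96 ± 0.22 (SE, n = 4 mice per group; edgeR adjusted p = 8.9e-13). Tbc1d16, an activator of Rab GTPase hydrolysis, fell from 24.2, 28.7, 26.3 and 17.4 CPM to 2.82, 1.54, 2.504 and 1.46 CPM in adipocytes. In liver it stayed at 22.2 to 34.3 CPM against 24.5 to 28.8 CPM, a tissue difference of -3.50 ± 0.28 (adjusted p = 8.8e-07).

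Both genes differed in a tissue where their level was not low, which was not so for Slc27a2 and Tfr2. Slc27a2, which activates very long chain fatty acids and brings fatty acids into hepatocytes, went from 1.57 to 4.14 CPM down to 0.137 to 0.378 CPM in adipocytes, beside 2230 to 2642 CPM in liver. Its tissue difference of -3.44 ± 0.37 (adjusted p = 1.86e-05) thus rests on 585 counts over 4 wild-type adipocyte libraries and 54 over 4 knockout-labelled ones. For Tfr2, the hepatic transferrin receptor that senses iron, the difference was -2.88 ± 0.37 (adjusted p = 0.000106), with 602 against 77 counts in adipocytes. Fads1, the delta-5 desaturase of polyunsaturated fatty acid synthesis, fell from 63.6 to 79.9 CPM to 16.8 to 24.1 CPM in adipocytes and was at 394 to 555 CPM in wild-type and 504 to 544 CPM in knockout-labelled liver. Its difference was -2.04 ± 0.18 (adjusted p = 2.81e-06).

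Among the 12 lowest differences were also genes of vessels, matrix and development. Thbd, the endothelial thrombin receptor thrombomodulin, was at 78.1 to 149 CPM in wild-type and 13.6 to 29.5 CPM in knockout-labelled adipocytes, and its tissue difference was -3.24 ± 0.43. Values of -2.88, -2.83 and -2.77 were found for Srpx2, Mxra8 and Hmcn1, which encode a sushi-repeat protein, a matrix remodelling protein and the basement membrane protein hemicentin. Lhx6, a LIM homeobox transcription factor, had -2.85 and Slc26a10, of an anion exchanger family, -3.71. The remaining 2 of the 12 were Gm4841 at -4.25 and the interferon-stimulated gene Ifit1 at -3.33. All 12 kept their within-mouse groups apart, since the choice required it.

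**Figure D2:**
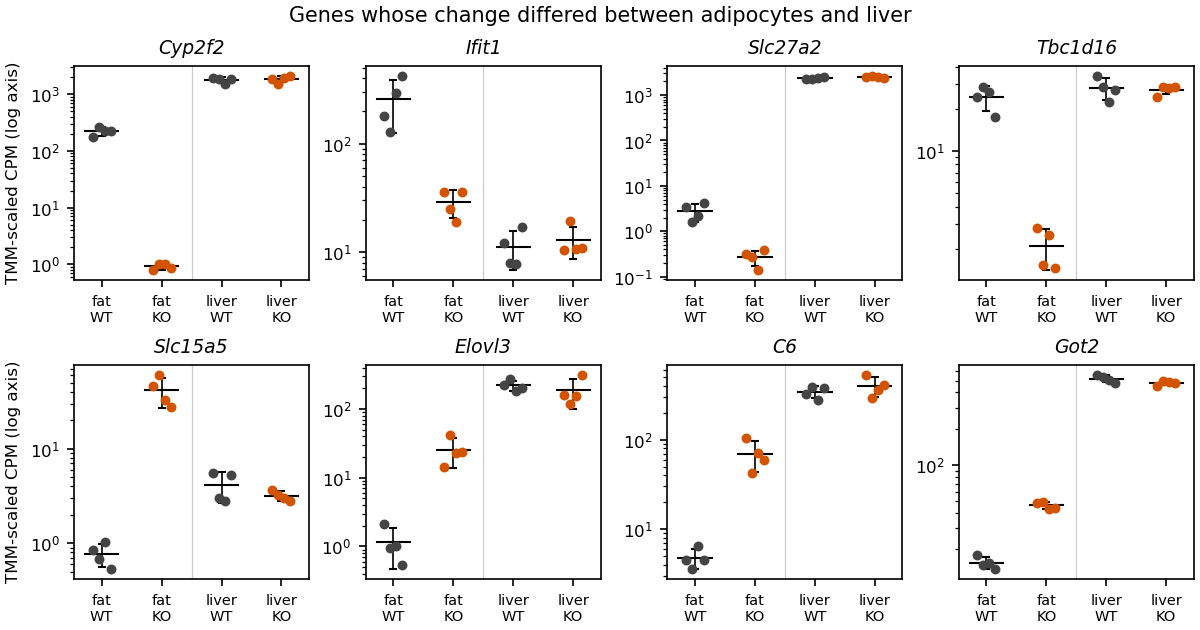
TMM-scaled CPM on log axes, which differ between panels, for 8 genes in fat (adipocytes) and liver, with one point per mouse and a bar for the mean with its SD (n = 4). The wild-type and knockout-labelled fat points are apart in each panel, as for Cyp2f2 with 175 to 266 against 0.779 to 1.01 CPM, while the liver points of both genotypes overlap or nearly do.

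The highest differences belonged to genes that were low, most of them near 0, in wild-type adipocytes. Of the 12 highest, Slc15a5, Aadac, Cyp2b10, Kng2, Acpp, Glt1d1, Foxq1, Klra2 and Mup10 averaged under 1 CPM there. These met the minimum in adipocytes only through the knockout-labelled libraries. Genes as low there that did not rise could not enter, so the high rank of these genes depends in part on the minimum. Slc15a5, of the proton-coupled peptide transporter family, was at 0.839, 0.681, 1.02 and 0.530 CPM in wild-type and at 46.1, 60.7, 33.2 and 27.8 CPM in knockout-labelled adipocytes, and at 2.79 to 5.55 against 2.78 to 3.66 CPM in liver. Knockout-labelled adipocytes thus exceeded liver, which no wild-type adipocyte library did, and the tissue difference was 6.17 ± 0.40 (adjusted p = 8.23e-08). Elovl3, an elongase of saturated very long chain fatty acids, rose from 0.530 to 2.14 CPM to 14.3 to 42.2 CPM in adipocytes and overlapped in liver at 183 to 274 against 119 to 316 CPM, a difference of 4.68 ± 0.54 (adjusted p = 4.56e-05). B3galt1, a galactosyltransferase, rose from 1.497 to 2.105 CPM to 28.05 to 38.2 CPM, and its difference was 3.78 ± 0.24 (adjusted p = 6.44e-08).

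Several of the others are best known from the liver. Aadac, an esterase of the hepatocyte endoplasmic reticulum, had 14 counts over the 4 wild-type adipocyte libraries, of which 1 had a count of 0, and 887 over the knockout-labelled ones, with 677 to 784 CPM in wild-type liver. Its fitted difference of 5.98 ± 0.43 depends on how so few counts are treated. C6, a terminal complement component, rose from 4.53, 3.57, 6.52 and 4.57 CPM to 105, 42.8, 70.9 and 58.9 CPM in adipocytes, and its liver groups overlapped at 277 to 393 against 296 to 532 CPM. The C6 difference was 3.64 ± 0.35 (adjusted p = 7.51e-06). Cyp2b10, a phenobarbital-inducible cytochrome P450, and Mup10, a major urinary protein, had differences of 4.74 ± 0.83 and 3.54 ± 0.52 from 136 and 75 wild-type adipocyte counts. Both have near-identical gene copies, among which the authors' counting may have split or moved reads, and so has Klra2, a natural killer receptor gene, at 3.66. The prostatic acid phosphatase gene Acpp at 4.50, the glycosyltransferase gene Glt1d1 at 4.00 and the forkhead gene Foxq1 at 3.81 had 69, 34 and 74 counts in wild-type adipocytes. The last of the 12 highest was the kininogen gene Kng2 at 4.52 ± 0.25, whose values are given with its chromosomal neighbours. Foxq1 did not pass with limma-voom (adjusted p = 0.114).

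Nuclear genes of the mitochondrial respiratory chain had higher values in knockout-labelled adipocytes and about equal ones in liver. Of 74 tested subunits of oxidative phosphorylation, 45 passed for the tissue difference, all higher, against 12.6% of all genes, and the median tissue difference was 0.47 beside 0.02 over all genes. In adipocytes the median change of the list was 0.50, against 0.02 in liver. By complex, 18 of 35 subunits of complex I, 4 of 4 of complex II, 8 of 9 of complex III, 7 of 10 of complex IV and 8 of 16 of complex V passed. Uqcrfs1, the Rieske iron-sulphur subunit of complex III, was at 158, 213, 164 and 175 CPM in wild-type and at 273, 312, 285 and 314 CPM in knockout-labelled adipocytes, with 266 to 288 against 255 to 305 CPM in liver. The adipocyte groups did not overlap and the liver groups did, and its difference was 0.74 ± 0.13 (adjusted p = 0.00148). Values of 0.71 ± 0.12 for Atp5o, a stalk subunit of ATP synthase, 0.73 ± 0.15 for Sdhd, the membrane anchor of succinate dehydrogenase, and 0.65 ± 0.13 for Ndufs1, the largest subunit of complex I, were of the same size.

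The tricarboxylic acid cycle, which feeds the respiratory chain, showed the same direction. Of 17 enzymes and subunits 15 passed, all higher, with a list median of 0.69, made of 0.67 in adipocytes and -0.01 in liver. Dlat, the acetyltransferase of pyruvate dehydrogenase, rose from 152, 214, 165 and 177 CPM to 345, 487, 386 and 401 CPM in adipocytes and was at 55.8 to 69.5 against 54.5 to 66.2 CPM in liver. Its tissue difference, 1.25 ± 0.17 (adjusted p = 0.000149), was the one with the smallest p of the list, followed by Idh3b and Dlst, subunits of isocitrate and oxoglutarate dehydrogenase, at 0.70 and 0.71. Of 75 mitochondrial ribosomal proteins 23 passed, all higher, a share of 30.7% against 12.6% of all genes, and Mrps6 was highest among those named, with 36.6 to 51.7 CPM against 95.2 to 108 CPM in adipocytes and a difference of 1.03 ± 0.13. Mitochondrial lists were at 0.29 (oxidative phosphorylation), 0.50 (tricarboxylic acid cycle) and 0.10 (mitochondrial ribosome) when scaled by library totals alone, where the median of all genes was -0.17, and 19, 12 and 8 members then passed as higher. Of all 10695 genes, 648 passed as higher with that scaling.

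These counts depended on which mice were used. In the 5 mice of 76 days, 3 wild-type and 2 knockout-labelled, edgeR called 0 of the 74 oxidative phosphorylation subunits, where all mice gave 60 higher and 1 lower at an unadjusted p under 0.05 and DESeq2 and limma-voom called 48 and 45. Leaving out one mouse at a time gave 29 (without wt_1138) to 57 (without wt_1136). For the tricarboxylic acid cycle the same settings gave 4 and 13 to 15. For the mitochondrial ribosome they gave 5 and 12 to 34. The 34 came without wt_1136, 14 without wt_1138, 13 without ko_1139 or ko_1152, and 12 without wt_1135 or ko_1151. Of all 10695 genes, 361 were called higher in the mice of 76 days. With one mouse left out, 861 (without ko_1139) to 1378 (without wt_1153) of all genes were called higher. Within mice, the mean log2 CPM of the 17 cycle genes in adipocytes minus that in liver was 0.37 to 0.67 for the wild-type animals, below the 1.05 to 1.27 of the knockout-labelled ones.

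**Figure D3:**
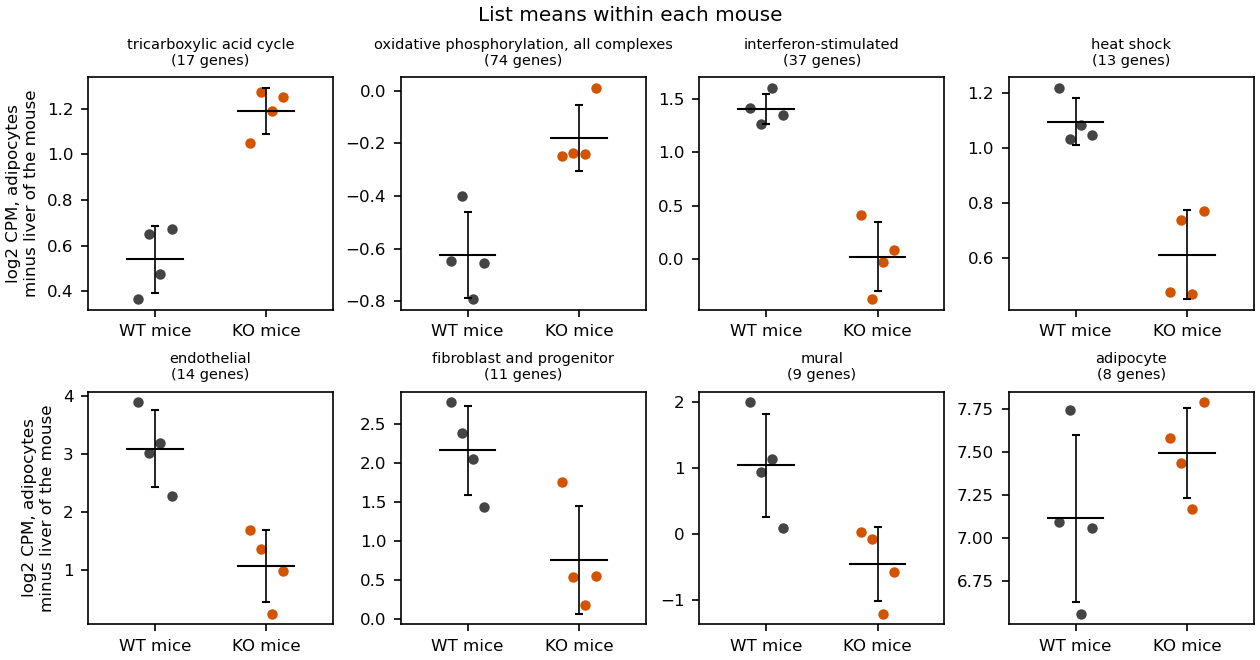
Mean log2 CPM of a gene list in the adipocytes of a mouse minus that in its liver, one point per mouse, for 8 lists, with the mean and SD of 4 mice as bars. The genotypes are apart for the tricarboxylic acid cycle, oxidative phosphorylation, interferon-stimulated, heat shock, endothelial and mural lists, the last narrowly. The fibroblast and adipocyte marker lists overlap, the latter with wild-type mice at 6.56 to 7.75 and knockout-labelled ones at 7.17 to 7.79.

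Genes that build and burn fat differed in both directions. Of 33 genes of fatty acid oxidation 6 passed as higher and 2 as lower, a share of 24.2% that is near the background of 23.4%. Acadvl, which opens mitochondrial oxidation of very long chains, rose from 228 to 266 CPM to 400 to 495 CPM in adipocytes and overlapped in liver, with a tissue difference of 0.87 ± 0.12 (adjusted p = 0.000247). Of 22 genes of fatty acid synthesis and desaturation 5 passed as higher and 3 as lower (36.4%). They included Pgd, an NADPH source in the pentose phosphate pathway, at 0.95 ± 0.19, beside Elovl3 and Fads1 above.

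Triglyceride assembly gave 6 higher and 1 lower of 19 (36.8%). Dgat2 and Dgat1, the acyltransferases of the last step, had tissue differences of 0.86 ± 0.19 and 0.83 ± 0.19 (adjusted p = 0.00483 for each), and Bscl2, the lipid droplet protein seipin, 0.75 ± 0.14. Dgat2 was at 855 to 1068 CPM in wild-type and 1218 to 1941 CPM in knockout-labelled adipocytes, and in liver at 492 to 674 CPM against 436 to 496 CPM. In lipolysis and lipid uptake, 4 of 21 passed as higher and 4 as lower (38.1%). Angptl4, a secreted inhibitor of lipoprotein lipase, was at 524 to 871 CPM in wild-type and 425 to 562 CPM in knockout-labelled adipocytes, and at 202 to 282 CPM against 318 to 360 CPM in liver. The groups were apart in liver and overlapped in adipocytes, with opposite signs, and the difference was -1.04 ± 0.21 (adjusted p = 0.00268). Gpihbp1, which carries lipoprotein lipase across capillary endothelium, differed by -1.81 ± 0.36. It was at -0.21 (edgeR adjusted p = 0.796) with the score of endothelial, fibroblast and mural markers described below as a covariate.

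Of 26 genes of cholesterol synthesis and its regulation 4 passed, all higher, a share of 15.4% that is near the 12.6% of all genes called higher. Cyp51, the lanosterol demethylase, rose from 23.2 to 36.9 CPM to 53.8 to 129 CPM in adipocytes and was at 116 to 146 against 140 to 194 CPM in liver, a difference of 1.20 ± 0.29 (adjusted p = 0.00777). Insig2, which holds the SREBP complex in the endoplasmic reticulum, had 1.08 ± 0.16.

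Of 13 genes of gluconeogenesis and glycerol use 6 passed, all higher (46.2%), and the median difference was 0.82, with 0.69 in adipocytes and -0.11 in liver. Got2, the mitochondrial aspartate aminotransferase, was at 17.9, 14.7, 15.5 and 13.7 CPM in wild-type and at 48.8, 49.3, 43.5 and 44.0 CPM in knockout-labelled adipocytes, and at 477 to 561 against 456 to 501 CPM in liver. Its difference of 1.70 ± 0.13 (adjusted p = 3.62e-07) came with a within-mouse spread that did not overlap. Gpt, alanine aminotransferase, rose from 126 to 159 CPM to 182 to 217 CPM in adipocytes and was at 396 to 460 CPM in wild-type against 300 to 409 CPM in knockout-labelled liver, a difference of 0.82 ± 0.15. In insulin signalling and glucose use 6 of 22 were higher and 1 lower (31.8%). Tbc1d4, which gates movement of the glucose transporter GLUT4, had 1.27 ± 0.17, Pfkl, the liver-type phosphofructokinase, 1.02 ± 0.17 and Grb14, an inhibitor of the insulin receptor, 1.19 ± 0.24.

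Among adiponectin receptors and subunits of AMPK, the energy-sensing kinase they engage, 1 of 14 genes passed, 7.14% against 23.4% of all. It was Prkab2, a regulatory subunit, at -0.97 ± 0.26 (adjusted p = 0.0137). Adipor1, a receptor of adiponectin, had a difference of 0.22 (95% interval -0.0017 to 0.44; adjusted p = 0.142). Among Trib1's family and partners 2 of 16 passed. Rfwd2, the gene for COP1, rose from 44.7 to 54.7 CPM to 68.8 to 77.3 CPM in adipocytes, was at 36.5 to 44.7 against 40.7 to 43.2 CPM in liver, and differed by 0.50 ± 0.11 (adjusted p = 0.00427). Trib2, a paralog of Trib1, was at 4.403 to 15.6 CPM against 1.91 to 3.99 CPM in adipocytes and differed by -2.12 ± 0.46 (adjusted p = 0.00433). Neither passed with the score of endothelial, fibroblast and mural markers described below as a covariate. Rfwd2 was then at 0.24 and Trib2 at -0.20 (edgeR adjusted p = 0.511 and 0.869). Trib3, the other paralog, had a difference of 1.07 (95% interval 0.25 to 1.88; adjusted p = 0.0552).

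Heat shock genes were lower in the tissue difference. The 13 heat shock genes had median changes of -0.19 (adipocytes) and 0.29 (liver), and 6 passed for the tissue difference, all lower, 46.2% against 10.8% of all genes. In liver 7 of the 13 were higher at an unadjusted p under 0.05. Dnaja1, a co-chaperone of HSP70, was at 175 to 226 CPM against 140 to 166 CPM in adipocytes and at 158 to 192 CPM against 192 to 209 CPM in liver, a difference of -0.59 ± 0.13 (adjusted p = 0.00473). The small heat shock protein gene Hspb1 had -1.47 ± 0.33. Hspa1b, an inducible HSP70, had -1.86 ± 0.50 (adjusted p = 0.0131), did not pass without mouse wt_1135 or ko_1151 (adjusted p = 0.0521 and 0.0551), and has a near-identical copy. Leaving out one mouse gave 2 (without wt_1135) to 6 lower members of this list, with 3 without ko_1151, and the 5 mice of 76 days 1. Of all 10695 genes, 383 were called lower in those mice. With the score of endothelial, fibroblast and mural markers described below as a covariate, 1 of the 13 was called lower. Hspb1 was then at -0.26 and Hspa1b at -0.09 (edgeR adjusted p = 0.785 and 0.962). Of 28 genes of the unfolded protein and integrated stress response 5 were higher and 2 lower, a share of 25% that is near the background of 23.4%. Chac1, a glutathione-degrading target of that response, rose from 9.77, 11.8, 14.6 and 15.6 CPM to 53.0, 39.2, 48.9 and 29.9 CPM in adipocytes. In liver it was at 7.62 to 11.99 CPM against 4.59 to 7.69 CPM, and the difference of 2.34 ± 0.30 (adjusted p = 9.58e-05) came with opposite signs. Of the 2 lower members, Creld2, an endoplasmic reticulum chaperone, rested on liver, with 17.2 to 28.4 CPM against 29.2 to 44.0 CPM there and -0.91 ± 0.19 for the difference.

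Interferon-stimulated genes, which act against viruses, had lower values in knockout-labelled adipocytes. Of 37 tested members 29 passed, all lower, against 10.8% of all genes, and the list median was -1.22, from -1.04 in adipocytes and 0.19 in liver. The summed level of the list was 3407 to 4860 CPM in wild-type and 1550 to 1853 CPM in knockout-labelled adipocytes, and 828 to 1067 CPM against 973 to 1133 CPM in liver, where the genotypes overlapped. In liver edgeR, DESeq2 and limma-voom each called 0 of the 37, and 2 were higher at an unadjusted p under 0.05. Ifit1, which binds foreign RNA caps, was at 180, 128, 295 and 420 CPM in wild-type and at 35.7, 25.1, 19.1 and 35.7 CPM in knockout-labelled adipocytes, beside 7.72 to 17.2 against 10.5 to 19.3 CPM in liver, and its adjusted p was 0.000367. Mx2, of the interferon-induced dynamin-like GTPase family and annotated as a polymorphic pseudogene, had a difference of -2.69 ± 0.33 (adjusted p = 7.21e-05). The immunity-related GTPases Igtp and Ifi47 had -2.03 ± 0.25 and -2.55 ± 0.33, from 78.1 to 120 CPM against 29.0 to 34.6 CPM and from 17.8 to 26.1 CPM against 3.29 to 7.10 CPM in adipocytes. The adipocyte values of both were apart, and their liver values of 22.1 to 50.2 CPM and 11.6 to 26.5 CPM overlapped between genotypes.

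Promoters of 3 of these genes are shown because the list moved together. The element bound by interferon regulatory factors holds repeated GAAA, so 2 copies of GAAA with any 2 bases between them were searched on both strands of the 300 bases from 250 before to 50 after each RefSeq start site (GRCm38.p6). The lines give the 250 bases before the start site, all on the plus strand, with matches in capitals, for Igtp (chr11:58199306-58199555), Ifit1 (chr19:34640639-34640888) and Ifi47 (chr11:49076337-49076586).
Igtp: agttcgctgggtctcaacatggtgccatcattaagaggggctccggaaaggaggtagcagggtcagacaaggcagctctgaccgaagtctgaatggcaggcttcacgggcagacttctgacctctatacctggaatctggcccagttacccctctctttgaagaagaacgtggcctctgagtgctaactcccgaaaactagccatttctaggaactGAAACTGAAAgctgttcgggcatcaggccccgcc
Ifit1: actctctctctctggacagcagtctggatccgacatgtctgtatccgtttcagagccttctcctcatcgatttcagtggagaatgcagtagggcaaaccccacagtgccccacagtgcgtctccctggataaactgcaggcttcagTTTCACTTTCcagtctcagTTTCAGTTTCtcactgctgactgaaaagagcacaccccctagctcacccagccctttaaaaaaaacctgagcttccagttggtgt
Ifi47: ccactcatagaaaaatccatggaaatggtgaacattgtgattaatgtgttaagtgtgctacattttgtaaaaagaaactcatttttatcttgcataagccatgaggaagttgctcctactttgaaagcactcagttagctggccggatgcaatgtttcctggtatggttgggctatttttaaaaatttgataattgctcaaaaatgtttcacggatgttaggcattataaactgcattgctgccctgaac
The match of Igtp begins 34 bases before its start site, and the 2 matches of Ifit1, in reverse orientation, begin 104 and 85 bases before it. Ifi47 has no match in the 300 bases. Of the 28 list members with a promoter in the table, 16 (57.1%) held the sequence, 14 of 24 that were called lower and 2 of 4 that were not called. Among the 8054 genes of the comparison with a promoter the share was 3.75%. It was 2.80% for genes with a higher and 7.52% for genes with a lower tissue difference, and 6.05% for the latter without the interferon list. The list was chosen as interferon-stimulated genes, so a high share in it could follow from that choice alone. Whether the sequence had a part in the differences between genotypes was not tested.

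Antigen presentation moved alongside. Of 14 class I genes 8 passed, all lower (57.1%), among them the immunoproteasome subunits Psmb8 and Psmb9 at -1.40 ± 0.18 and -1.31 ± 0.21. The other named member, H2-Q4, differed by -1.04 ± 0.18, and class I genes resemble each other closely enough that reads may be shared. Psmb8 was at 46.5 to 55.8 CPM against 21.5 to 26.7 CPM in adipocytes and at 18.6 to 29.9 against 25.6 to 29.3 CPM in liver. Of 37 proteasome genes 8 were higher and 3 lower, 29.7% in all. Leaving out one mouse moved the 8 to 15 (wt_1136), 4 (ko_1151), 3 (ko_1152), 2 (wt_1135 or wt_1138) or 1 (ko_1139). Psmd8, a lid subunit of the constitutive particle, was higher by 0.79 ± 0.11. The 7 class II genes had a median of -0.92 in adipocytes and 0.46 in liver, and 4 passed, all lower (57.1%). Without ko_1137 7 passed, and without wt_1135, wt_1136, ko_1151 or ko_1152 edgeR called 0. H2-Ab1, at -1.54 ± 0.47 (adjusted p = 0.0271), did not pass without mouse wt_1135, wt_1136, ko_1151 or ko_1152 (adjusted p = 0.118, 0.0596, 0.0568 and 0.0870). Of 17 genes of inflammation and adhesion 5 passed, all lower (29.4% against 10.8% of all genes). They were led by the leukocyte adhesion genes Icam1 at -1.64 ± 0.33 and Selp at -1.82 ± 0.43, the latter without a pass in limma-voom (adjusted p = 0.0540). With the score of endothelial, fibroblast and mural markers described below as a covariate, Icam1 was at -0.45 and Selp at -0.81 (edgeR adjusted p = 0.629 and 0.557). The inflammation and class I lists then had 1 lower member each.

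Genes of plasma proteins differed in both directions. Of 25 acute phase and complement genes 14 passed as higher and 5 as lower, a share of 76.0%, and the median was 0.97 in the difference, 0.96 in adipocytes and -0.00 in liver. The files held 36 genes of this list, and the others did not reach the minimum in both tissues. A member under the minimum in wild-type adipocytes could enter only by a rise there. The share and the medians may thus depend in part on the minimum. Beside C6, Masp1, a protease of the lectin pathway, rose from 0.652 to 0.971 CPM to 3.62 to 8.04 CPM in adipocytes and was at 28.5 to 57.2 against 27.1 to 42.8 CPM in liver, a difference of 3.22 ± 0.39 (adjusted p = 6.3e-05). Saa3, the serum amyloid A of extrahepatic tissue, rose from 6.88 to 13.6 CPM to 52.1 to 69.9 CPM, with 3.46 to 8.33 CPM over all liver libraries and a difference of 2.504 ± 0.34 (adjusted p = 0.000149). Apolipoproteins gave 4 higher and 1 lower of 11 tested (45.5%), out of 24 in the files, with the same limit. Apoe, a ligand of lipoprotein receptors, was at 2613 to 2766 CPM in wild-type and 3457 to 4542 CPM in knockout-labelled adipocytes and differed by 0.75 ± 0.18 (adjusted p = 0.00833), a call that was lost without mouse ko_1151 (adjusted p = 0.0527). Apoc2, the activator of lipoprotein lipase, rose from 0.949 to 1.61 CPM to 4.26 to 6.61 CPM and differed by 2.22 ± 0.21.

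Of the 12 hepatocyte markers 5 were in the comparison. Of these, 2 passed as higher and 1 as lower, and they went in opposite directions in adipocytes. Markers under the minimum in wild-type adipocytes, such as Serpina1a, could enter only by a rise there. The split into higher and lower thus depends in part on the minimum. Alb, the albumin gene, fell from 37.3, 58.1, 84.2 and 94.4 CPM to 16.4, 24.2, 17.1 and 15.2 CPM, a tissue difference of -1.91 ± 0.37 (adjusted p = 0.00214). Fga and Serpina1a, for fibrinogen and alpha-1-antitrypsin, rose from 0.478 to 1.88 CPM to 3.31 to 6.44 CPM and from 0.435 to 1.24 CPM to 1.69 to 2.58 CPM. Their differences were 2.35 ± 0.51 and 1.41 ± 0.30. In limma on within-mouse differences, which takes the mouse as a block, Alb and Serpina1a were not called (adjusted p = 0.0711 and 0.144). Their liver changes were 0.00 (Alb), 0.11 (Fga) and 0.03 (Serpina1a). Serpina1a has close copies among which reads may be shared.

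Among xenobiotic cytochromes and receptors 3 of 13 were higher and 3 lower (46.2%), among them Cyp27a1, the mitochondrial sterol hydroxylase, at 1.96 ± 0.20 and Cyp4b1 at -1.89 ± 0.32. Of 26 glutathione and antioxidant genes 4 were higher and 3 lower, a share of 26.9% that is near the background of 23.4%. Nqo1, a quinone reductase, differed by -1.34 ± 0.25, Gstt1, a glutathione transferase, by -1.14 ± 0.23, and Mgst3, a microsomal relative, by 0.86 ± 0.18.

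Markers of cells other than adipocytes moved with the genotype label in the adipocyte libraries. All 14 endothelial markers passed for the tissue difference, as did 6 of 11 fibroblast and progenitor markers and 6 of 9 mural markers, all lower, with list medians of -2.05, -1.31 and -1.54. The summed level of endothelial markers was 813 to 2374 CPM in wild-type and 230 to 534 CPM in knockout-labelled adipocytes, and 166 to 224 CPM over all liver libraries. Emcn, an endothelial sialomucin, was at 51.2, 26.1, 30.0 and 18.7 CPM in wild-type and at 8.80, 9.79, 4.55 and 8.79 CPM in knockout-labelled adipocytes, and the difference was -2.30 ± 0.39 (adjusted p = 0.00094). The VEGF receptors Flt1 and Kdr had -2.41 ± 0.41 and -2.17 ± 0.39, and Abcc9, a potassium channel subunit of pericytes, -2.44 ± 0.22. In bulk samples fewer cells of a type and less RNA per cell cannot be told apart.

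The counts of fibroblast and mural markers varied with the method and the mice used. With limma-voom 3 fibroblast and 2 mural markers passed, against 13 of the 14 endothelial ones, and with the mouse as a block in edgeR 6, 2 and 14. Leaving out one mouse gave 2 (without wt_1135) to 9 (without ko_1137) fibroblast markers and 1 (without wt_1135, ko_1151 or ko_1152) to 7 (without wt_1153) mural markers, with 2 without wt_1138 and 3 without wt_1136, while all 14 endothelial markers passed each time. Dcn, the collagen-binding proteoglycan decorin, differed by -1.5 ± 0.41 (adjusted p = 0.0146) and did not pass without mouse wt_1135 (adjusted p = 0.0644). Pdgfrb, the pericyte receptor of platelet-derived growth factor, had -1.54 ± 0.44 (adjusted p = 0.0183), lost with the mouse as a block (adjusted p = 0.0533). Of 32 matrix genes 10 were lower and 1 higher (34.4%), with Bgn, the proteoglycan biglycan, at -2.46 ± 0.28 and Col6a3, a collagen VI chain, at -2.02 ± 0.27. Without one mouse the 10 became 5 (wt_1135), 6 (ko_1151) and up to 17 (ko_1137). The 11 macrophage markers had a median of -0.75, of which edgeR, DESeq2 and limma-voom each called 0 and 1 passed at an unadjusted p under 0.05. Without ko_1137, however, edgeR called 6 of them lower, among them C1qa, a complement subunit, at -1.57 (adjusted p = 0.0204). Of the 8 adipocyte markers in the comparison edgeR called 0, DESeq2 2 and limma-voom 0, with 2 at an unadjusted p under 0.05, both higher. Adrb3, the beta-3 adrenergic receptor, for example differed by 0.90 (95% interval 0.18 to 1.62; adjusted p = 0.0669).

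A mean over the 34 endothelial, fibroblast and mural markers was 4.67 to 6.01 (log2 CPM) among wild-type adipocyte libraries against 3.12 to 4.34 among knockout-labelled ones, a difference of -1.63, and differed by 0.05 in liver. The groups did not overlap in adipocytes, so the score and the genotype label are largely shared there. With this score as a covariate in each tissue, 257 genes passed for the tissue difference (143 higher, 114 lower), 213 of them among the 2504. The interferon list then had 12 lower members with a median of -0.94, the tricarboxylic acid cycle list had 0 called (median 0.43) and the oxidative phosphorylation list 0 (median 0.31), where the median SE of a subunit grew from 0.15 to 0.21. The acute phase list had 3 higher and 2 lower members. The 34 markers themselves had a median of 0.06, and a value near 0 was fixed in advance because the score is their mean. The matrix list turned from a median of -0.83 to 0.22 with 2 lower and 1 higher members, and the class II list went from -1.32 to -0.16 with 0 called by edgeR and H2-Ab1 at -0.24 (adjusted p = 0.885). What part the other cells had in the differences between genotypes was not tested.

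**Figure D4:**
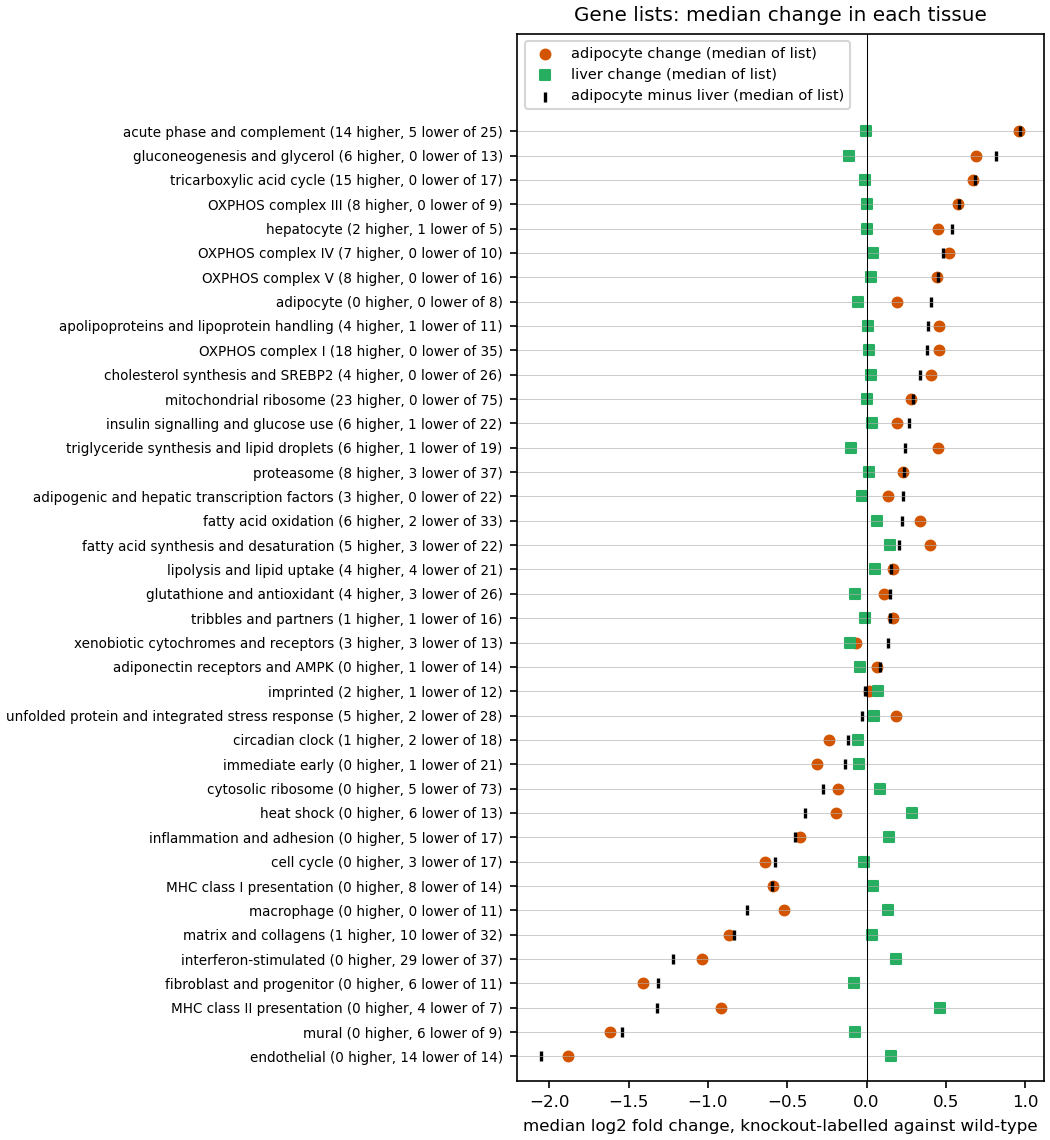
Median log2 change of each gene list with at least 5 tested members in adipocytes (circles) and liver (squares) and the median tissue difference (ticks), with the number of members called higher or lower of those tested beside each name. The liver squares stay near 0, between -0.11 and 0.46, while the adipocyte circles run from -1.88 for endothelial markers to 0.96 for acute phase and complement genes.

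In the remaining lists the share of members called was near or below the 23.4% of all genes. Of 73 cytosolic ribosomal proteins 5 passed, all lower (6.85%), and 33 with library totals alone, where 1975 of all 10695 genes were lower. The 5 became 1 with the mouse as a block, 12 without wt_1138 or ko_1152, 9 without wt_1153, 2 without ko_1137 and 1 without any one of the others. Rpl35a had the smallest p, at -0.56 ± 0.13 (adjusted p = 0.00754), while Rpl27a at -0.48 (adjusted p = 0.0242) was lost with the mouse as a block (adjusted p = 0.0554). Of 21 immediate early genes 1 was lower (4.76%), Fosl2, an AP-1 subunit, at -0.70 ± 0.17. Of 18 clock genes 1 was higher and 2 were lower (16.7%). Hlf, a PAR-domain transcription factor, fell in adipocytes from 35.5 to 56.7 CPM to 7.67 to 17.9 CPM and differed by -1.78 ± 0.34 (adjusted p = 0.00201). Rora, a nuclear receptor of the clock, had 1.36 ± 0.33, without a pass in limma-voom (adjusted p = 0.0547). Of 17 cell cycle genes 3 were lower (17.6%), among them Ccnd1, cyclin D1, at -1.82 ± 0.48, lost without mouse ko_1151 (adjusted p = 0.0583). Of 12 imprinted genes 2 were higher and 1 lower (25%), with Plagl1, a zinc finger growth regulator, at 1.14 ± 0.30 and not passed by limma-voom (adjusted p = 0.0616) or by limma on within-mouse differences (adjusted p = 0.0641). Of 22 adipogenic and hepatic transcription factors 3 were higher (13.6%), and 1 of 4 lymphocyte markers, Cd4, was lower. Of the 2 granulocyte, 2 hepatic stellate, 1 cholangiocyte, 1 red cell and 1 Schwann cell markers tested, edgeR and DESeq2 called 0, limma-voom 1 stellate marker, and an unadjusted p under 0.05 was found for 1 stellate and 1 cholangiocyte marker. Of the skeletal muscle markers 0 reached the minimum level.

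A total of 3 genes passed in liver with the larger change there, and passed for the tissue difference. Cd36, the fatty acid translocase, was at 48.6, 30.5, 65.1 and 33.2 CPM in wild-type and at 17.2, 22.3, 20.04 and 13.1 CPM in knockout-labelled liver. In adipocytes it was at 4361 to 4608 CPM against 4491 to 4709 CPM, the same level within the spread. The liver groups were apart and the adipocyte groups overlapped, with changes of -1.29 ± 0.21 (adjusted p = 0.0238) and 0.03 ± 0.20 and a tissue difference of 1.32 ± 0.29 (95% interval 0.71 to 1.92; adjusted p = 0.00421). Adora1, the Gi-coupled adenosine receptor that restrains lipolysis in fat, was at 34.0, 36.5, 30.8 and 22.6 CPM in wild-type and at 16.9, 15.7, 11.2 and 11.4 CPM in knockout-labelled liver, and at 103 to 146 CPM against 146 to 199 CPM in adipocytes. Its changes had opposite signs, -1.17 ± 0.17 in liver (adjusted p = 0.0169) and 0.43 ± 0.17 in adipocytes (adjusted p = 0.0512). The tissue difference of Adora1 was 1.601 ± 0.24. With liver fitted alone, 2 genes passed, both higher, and 1 of them was among the 5 liver calls. The liver calls of Cd36 and Adora1, both lower, were thus lost in that fit. Of the 3 higher liver calls, for Ddhd2, Zfp949 and Eif4a2, only 1 was kept there. Without mouse wt_1135, wt_1138, ko_1151 or ko_1152, 0 genes passed as lower in liver. Ddhd2, a triglyceride and phospholipid hydrolase, rose in liver from 27.2, 24.3, 21.5 and 26.7 CPM to 44.4, 37.2, 39.3 and 37.6 CPM, a change of 0.67 ± 0.10 (adjusted p = 0.0169), against 0.14 ± 0.10 in adipocytes, and its tissue difference was -0.53 ± 0.14.

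Other tissue differences rested mainly on liver values although no liver change passed, and these genes were chosen after their values were seen. Txnip, the glucose-responsive inhibitor of thioredoxin, was at 67.6, 66.4, 198 and 124 CPM in wild-type and at 258, 438, 330 and 152 CPM in knockout-labelled liver, where the groups overlapped. In adipocytes, at 1099 to 1439 CPM against 670 to 1061 CPM, they did not. The difference was -1.86 ± 0.46 (adjusted p = 0.0089), from 1.37 in liver and -0.49 in adipocytes. G0s2, an inhibitor of adipose triglyceride lipase, had 24.2, 26.2, 68.0 and 66.5 CPM against 166, 154, 132 and 60.9 CPM in liver and a difference of -1.53 ± 0.46 (adjusted p = 0.0234), lost without mouse wt_1136, ko_1139 or ko_1151 (adjusted p = 0.0582, 0.0801 and 0.0550). Pparg, the master regulator of adipocyte differentiation and a member of a list, was at 6.27 to 11.6 CPM against 3.16 to 8.21 CPM in liver and at 296 to 316 CPM against 364 to 419 CPM in adipocytes. Its difference was 1.22 ± 0.31 (adjusted p = 0.0105). Opposite signs without overlap in either tissue were seen for Nmnat3, of mitochondrial NAD synthesis, at 0.59 in adipocytes and -0.60 in liver, and for Prkca, protein kinase C alpha, at 0.27 and -0.52. Their tissue differences were 1.19 ± 0.18 and 0.78 ± 0.14 (adjusted p = 0.000463 and 0.00118).

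**Figure D5:**
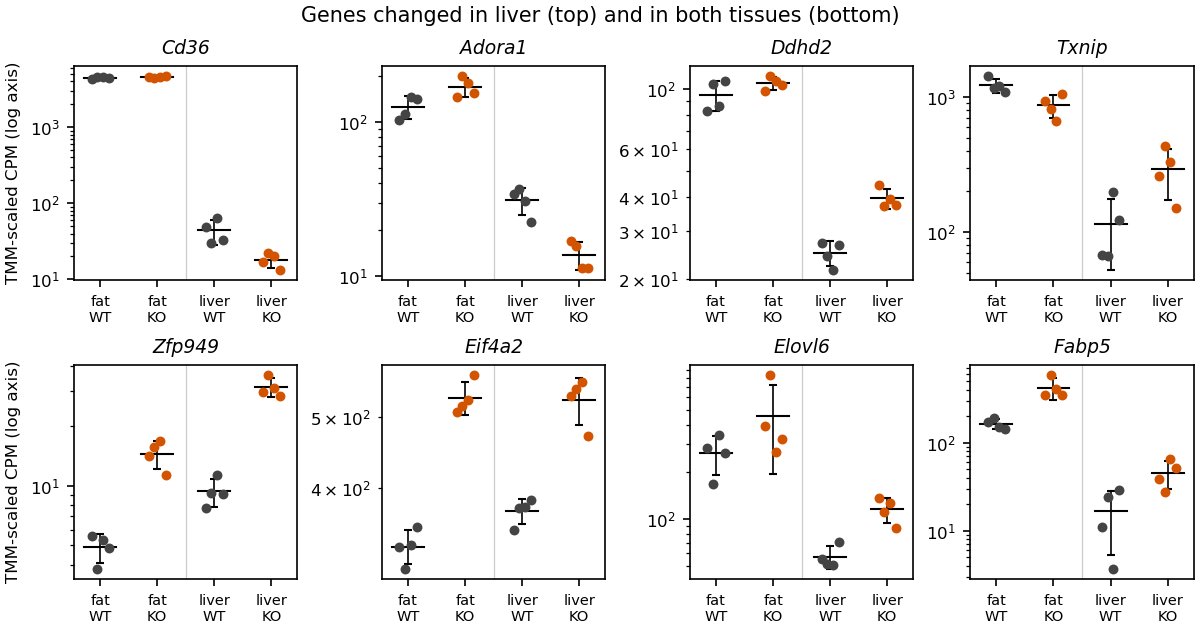
TMM-scaled CPM on log axes, which differ between panels, with one point per mouse and the mean and SD of 4 as bars. The top row holds 4 genes that differed mainly through liver, the bottom row 4 with changes of the same sign in both tissues. Of the latter, Elovl6 and Fabp5 had liver changes that did not pass. Cd36 is level in fat and lower in knockout-labelled liver, 13.1 to 22.3 against 30.5 to 65.1 CPM, and Zfp949 is higher in knockout-labelled samples of both tissues.

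The label went with the same change in both tissues for 2 genes by edgeR. At most 1 of these kept its liver call with liver fitted alone. Without mouse wt_1138 or ko_1151 only 1 liver call of any gene was left. Among genes called in both tissues DESeq2 found 16 with the same and 8 with opposite directions, and limma-voom 4 and 1. Zfp949, a zinc finger gene on chromosome 9 (9:88548020-88571061), was at 5.58, 3.80, 5.35 and 4.83 CPM in wild-type and at 14.1, 15.7, 16.8 and 11.3 CPM in knockout-labelled adipocytes. In liver it was at 7.71, 9.21, 11.3 and 9.11 CPM against 29.6, 36.1, 31.1 and 28.3 CPM. No values overlapped in either tissue, the changes were 1.56 ± 0.15 and 1.74 ± 0.15 (adjusted p = 2.25e-06 and 3.12e-05), and the tissue difference was -0.18 (95% interval -0.62 to 0.26; adjusted p = 0.569). Eif4a2, an RNA helicase of translation initiation, was at 332, 310, 334 and 353 CPM against 507, 517, 527 and 570 CPM in adipocytes and at 350 to 384 CPM against 470 to 557 CPM in liver. Its changes were 0.67 ± 0.08 and 0.50 ± 0.08 (adjusted p = 1.31e-05 and 0.0238), and the tissue difference of 0.17 had a 95% interval of -0.06 to 0.41, which turned to -0.02 with library totals alone.

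Eif4a2 lies on chromosome 16 (16:23107444-23114136, GRCm38) between the kininogen genes and Adipoq, and its neighbours were read after its values were seen. Of 13 annotated genes within 250 kb that the files list, 8 were in the comparison. Kng2 (16:22985854-23029482), which encodes a kininogen, a precursor of bradykinin, was at 0.395, 0.0825, 0.348 and 0.367 CPM in wild-type and at 11.6, 11.4, 10.97 and 11.6 CPM in knockout-labelled adipocytes, 62 counts in all against 2242. In liver it was at 323, 369, 341 and 333 CPM against 499.6, 590.5, 549.6 and 583 CPM. The genotypes were apart in both tissues, with changes of 5.22 ± 0.20 and 0.70 ± 0.14 (adjusted p = 6.02e-11 and 0.106), so that the tissue difference of 4.52 ± 0.25 stood beside the same direction in liver. Kng1 (16:23057865-23082078), the next kininogen gene, was under 1 CPM in adipocytes and outside the comparison, and its liver values of 2921 to 3744 CPM in wild-type and 5532 to 6329 CPM in knockout-labelled mice were apart as well. Kng1 and Kng2 are similar in sequence, so reads may be shared between them.

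The order along the chromosome is Ahsg, Fetub, Hrg, Kng2, Kng1, Eif4a2, Rfc4, Adipoq and St6gal1. Liver values overlapped between the genotypes for Ahsg, the fetuin A gene, at 12709 to 15462 against 12477 to 15105 CPM, for Fetub at 757 to 989 against 860 to 1115 CPM, for Hrg, the histidine-rich glycoprotein gene, at 1316 to 1589 against 1059 to 1332 CPM, and for St6gal1, a sialyltransferase gene, at 39.8 to 71.6 against 41.5 to 59.3 CPM. Rfc4, a clamp loader subunit gene that overlaps the end of Eif4a2 on the opposite strand, was at 2.33 to 2.97 against 2.62 to 4.49 CPM in adipocytes and 2.41 to 3.65 against 2.67 to 3.47 CPM in liver. Snora81, a small nucleolar RNA within Eif4a2, was at 0.993 to 1.83 CPM in wild-type and 2.07 to 2.57 CPM in knockout-labelled liver, so that the genotypes were apart in liver for Kng2, Kng1, Eif4a2 and Snora81 and overlapped for the other genes named here. Around Zfp949, the tested neighbours Nt5e, Snx14, Syncrip, Snhg5 and 9430037G07Rik had liver changes of -0.42, -0.15, 0.16, 0.04 and -0.37, with adjusted p of 0.515 to 0.958. Nt5e, an enzyme that makes adenosine, was apart in liver at 6.79 to 10.5 CPM in wild-type against 6.12 to 6.76 CPM, and its tissue difference was 1.71 (adjusted p = 0.00156). What these shared changes stem from was not tested.

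A set of lipid genes, again chosen after their values were seen, rose in adipocytes and had a liver change of the same sign that did not pass. Elovl6, the elongase of palmitate, changed by 0.78 in adipocytes (adjusted p = 0.0454) and 1.01 in liver (adjusted p = 0.285). In liver it was at 55.4, 51.1, 50.6 and 70.9 CPM against 136, 111, 126 and 86.9 CPM and did not overlap. In adipocytes the groups overlapped, at 8114 to 17295 counts against 11710 to 49507, the highest in mouse ko_1139. Acacb, the acetyl-CoA carboxylase of mitochondria, changed by 0.48 and 0.82. Its liver values of 38.1 to 69.0 CPM against 76.3 to 98.8 CPM were apart too, while its adipocyte values overlapped. Fabp5, a fatty acid carrier, changed by 1.36 and 1.44, the lipid droplet coat gene Plin2 by 0.45 and 0.66, and Mgll, monoacylglycerol lipase, by 0.38 and 0.43. Their tissue differences were between -0.34 and -0.05, with 95% intervals as wide as -1.30 to 1.14 for Fabp5 and as narrow as -0.40 to 0.31 for Mgll. Equal changes in both tissues lay inside each interval, and so did unequal ones.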

How the data were processed

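Poly-A RNA of adipocytes and liver from 8 mice was sequenced (TruSeq libraries, NextSeq 500, per the labels' protocols), with an RNA integrity number above 6 for fat and above 9 for liver. The deposited values are read counts per gene that the authors made with bcl2fastq 2.17, STAR 2.5.2b and featureCounts 1.5.0 on mm10, per the submitters' processing notes. Annotation and strandedness were not given in the sources used here. Of counts between 1 and 20, 77.9% were even, so fits were also run on halved counts. Whether mice of a group came from separate litters is not stated, so p-values measure the spread between these mice.

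Genes were kept at a mean of at least 1 CPM in the 8 libraries of each tissue, scaled by TMM over 16 libraries, and fitted with edgeR 4.0.16 (R 4.3.3; quasi-likelihood, 4 group means, two-sided, Benjamini-Hochberg over 10695 genes). DESeq2 1.42.0 and limma 3.58.1 served as alternatives. Within-mouse values are log2 CPM with a prior count of 2. The fit was tested on simulated data. Mouse numbers pair libraries of one animal; the deviations of a mouse's 2 libraries from their group means correlated at -0.111 to 0.188, and fits with the mouse as a block are given in the closing section. Libraries of a group differed by more than counting noise (lowest chi-square per degree of freedom 30.4).

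The members and gene lists were chosen with earlier results of these data known. Named genes are Trib1, Adipoq, the 12 highest and 12 lowest called differences without within-mouse overlap, genes called in liver, and up to 3 members per list with the smallest p; some genes that this rule takes are not reported here. No gene was called in both tissues with opposite signs by edgeR, against 8 by DESeq2 and 1 by limma-voom; at an unadjusted liver p under 0.05 there were 189. Chromosomal neighbours, the Ifit1 promoter and genes so marked in the text were chosen after their values were seen. GENCODE M21 (GRCm38) gave positions for 10076 of 10695 genes, and RefSeq (GRCm38.p6) the promoters.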

Additional observations from a re-analysis of the deposited data

Results flagged for a closer look

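The tissue difference itself passed for 2504 genes, each a gene whose genotype change differed between adipocytes and liver by the interaction test. Among 80 groups of 4 mice (40 genes), 4 held a mouse that stood apart from the other three in its adipocyte-minus-liver log2 CPM, and chance gives about 1 in 20. For Kng2, mouse wt_1136 was at -11.4558, with the nearest mouse at -9.7463, on 4 adipocyte counts. For Slc26a10, mouse wt_1153 was at -1.23854 and the nearest at 0.486493. For Hmcn1, mouse ko_1152 was at -2.34973 and the nearest at -3.60751, and for Eif4a2 the same mouse was at 0.279689 and the nearest at -0.0715992.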

How the results depend on the processing

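The 2504 called differences became 2857 with DESeq2, 2230 with limma-voom, 2443 with TMM within each tissue, 2623 with library totals alone, 2845 with edgeR's own expression filter, 2603 without a filter, 2320 with the minimum in each of the 4 groups, 1700 at 5 CPM and 2501 with halved counts. Age by tissue as a covariate gave 2147, the 76-day mice alone 744 (fewer samples), and the stromal score by tissue 257. Leaving out one mouse gave 1661 (without mouse wt_1135) to 2632, and 1668 without mouse ko_1151. Adipocyte calls ranged from 3052 to 4101 without one mouse. The 5 liver calls became 60 with DESeq2, 8 with limma-voom and 2 with liver fitted alone, 1 of these 2 among the 5. Without one mouse they became 1 to 7, with 1 without mouse wt_1138 or ko_1151, 2 without wt_1135, and 3 without wt_1136 or ko_1152. Within-mouse groups that did not overlap numbered 2516 at a prior count of 0.5 and 2694 with library totals.

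With the mouse as a replicate block, edgeR called 2160 and limma on within-mouse differences 2016. In the edgeR block Rpl27a, Rps23, Rxrg and Pdgfrb were no longer called (adjusted p = 0.0554, 0.0740, 0.0517 and 0.0533) and Mertk was (adjusted p = 0.0181). Alb, Serpina1a, Plagl1, Mest and Notch3 were no longer called in the within-mouse limma fit, in addition to Rpl27a, Rps23 and Pdgfrb. No paired analysis was possible for the change within one tissue because each mouse has a single genotype and one library per tissue.

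Of 3441 values for 159 named genes under the alternatives, 3135 kept direction and side of the threshold, 250 lost and 26 gained the call, and 30 (16 genes) changed sign. Of the 131 called genes among them 38 kept the call in every alternative run, and 71 in every one but the stromal score. With the minimum in each of the 4 groups, 145 of the 159 were still tested, and these kept direction and side of the threshold. With library totals Eif4a2 was at -0.015 and Trib1 at -0.041. With the stromal score the differences were Prkab1 0.094, Klf2 0.30, Dcn 0.043, Pdgfrb 0.55, Notch3 0.55, C1qa 0.73, Cd68 0.68, Ecm1 0.75, Hgf -0.32, Alas2 0.67, Trib1 -0.51, Elovl6 0.45, Mgll 0.20 and Fabp5 0.19. Mgll was at 0.0079 without a filter and 0.039 with age by tissue, and Fabp5 at 0.090 in the 76-day mice and 0.19 with age by tissue. Without one mouse, Csf3r was at -0.042 (ko_1139 and wt_1153), Trib1 at -0.038 (ko_1139), Elovl6 at 0.0053 (ko_1151), Mgll at 0.077 (wt_1136) and 0.01 (wt_1138), and Fabp5 at 0.10 (wt_1135), 0.22 (wt_1138), 0.15 (ko_1151) and 0.076 (ko_1152). Over the 8 such fits Trib1 ranged from -0.038 to 0.31, Elovl6 from -0.75 to 0.0053, Mgll from -0.22 to 0.077 and Fabp5 from -0.53 to 0.22. The cause was not tested. The median tissue difference of the glutathione, xenobiotic, lipolysis, tribbles and AMPK lists was -0.04, -0.05, -0.03, -0.04 and -0.11 with library totals, against positive values with TMM. With the stromal score the medians of lists with at least 5 members that changed sign were -0.02 for fatty acid oxidation, -0.08 for AMPK, 0.22 for matrix, -0.20 for glutathione, 0.06 for cell cycle, 0.04 for imprinted genes, -0.0029 for transcription factors, 0.07 for fibroblast, 0.55 for mural and 0.73 for macrophage markers. The fibroblast and mural markers, among them Dcn, Pdgfrb and Notch3, are part of that score, so a loss of their difference was fixed in advance.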
